A study of Mus musculus with 24 samples.

Results

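The Mir181 family of the mouse comprises 6 microRNA genes, Mir181a-1, Mir181b-1, Mir181a-2, Mir181b-2, Mir181c and Mir181d, which were taken by symbol from a table of 55335 genes. The table holds 1180 genes with a microRNA symbol, of which 388 had a count in some library. Of the 6 family members, 5 had a count. The family was picked because Mir181a-1 and Mir181a-2 were high in neural progenitors, so the difference between the cell types is described here without a test.

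Small RNA was sequenced from mouse embryonic stem cells (mESC) and from neural progenitor cells (NPC) grown from them, with 2 libraries in each of 12 groups. In both cell types the groups were an Htt knockout (KO), the Htt wild type (WT), and 4 lines titled Q20, Q50, Q92 and Q111, which are heterozygous for a CAG repeat knocked into Hdh, the mouse huntingtin gene now called Htt. The number in a title is its repeat length, except that the growth protocol gives 89 repeats where a title says Q92. The mESC were kept with leukemia inhibitory factor on gelatin under a layer of irradiated CF-1 mouse fibroblasts. The NPC were made over 7 days in N2B27 medium and then expanded on laminin with EGF and FGF. Each genotype is represented by 1 line as far as the labels tell, so an effect of the genotype and any other difference between lines cannot be told apart.

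MicroRNA genes are transcribed as long precursors, cut in the nucleus to a hairpin and in the cytoplasm to a short duplex, whose strands are named 5p and 3p after the arm of the hairpin they come from. The loaded strand pairs with messenger RNAs mainly through its seed, bases 2 to 8, and lowers their output. miR-181 is best known from lymphocytes, where it tunes the sensitivity of the T cell receptor, and it is also expressed in brain, where its reported targets include regulators of cell death and of growth factor signalling.

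The genes lie in 3 pairs (GRCm38). Mir181a-1 (chr1:137966455-137966541, plus strand, ENSMUSG00000065565) and Mir181b-1 (chr1:137966639-137966718, plus strand) are 97 bases apart. Mir181a-2 (chr2:38852735-38852810, plus strand) and Mir181b-2 (chr2:38853830-38853918, plus strand) are 1019 bases apart. Mir181c (chr8:84178873-84178961, minus strand) and Mir181d (chr8:84178716-84178787, minus strand) are 85 bases apart.

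The mature sequences are shown because they set which of these genes a short read can be told apart by. They are from RefSeq (GRCm38.p6), read 5′ to 3′, with the seed in capitals.
miR-181a-5p, from Mir181a-1 and Mir181a-2: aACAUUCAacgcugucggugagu
miR-181b-5p, from Mir181b-1 and Mir181b-2: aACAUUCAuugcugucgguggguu
miR-181c-5p: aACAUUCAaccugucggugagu
miR-181d-5p: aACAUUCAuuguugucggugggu
miR-181a-1-3p: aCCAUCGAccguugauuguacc
miR-181a-2-3p: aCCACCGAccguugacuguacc
miR-181b-1-3p: cUCACUGAacaaugaaugcaa
miR-181b-2-3p: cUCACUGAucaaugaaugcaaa
miR-181c-3p: aCCAUCGAccguugaguggacc
miR-181d-3p: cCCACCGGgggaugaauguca

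All 6 members matched the table, with 12 mature entries and 10 distinct sequences. The 5p strands all carry the seed ACAUUCA, which no gene outside the family carried among the 1679 mature names of the table. The 3p strands fall into 4 seeds. miR-181a-1-3p and miR-181c-3p share CCAUCGA, miR-181a-2-3p has CCACCGA, both miR-181b 3p strands have UCACUGA, and miR-181d-3p has CCACCGG. With positions counted from 1 at the 5′ end, miR-181a-1-3p differs from miR-181a-2-3p by U5C, inside the seed, and by U16C.

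The hairpins of the a genes are shown with both mature arms in capitals, since these are the loci on which the results turn.
Mir181a-1: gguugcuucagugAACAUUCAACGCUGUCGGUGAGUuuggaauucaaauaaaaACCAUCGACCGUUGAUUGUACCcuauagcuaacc
Mir181a-2: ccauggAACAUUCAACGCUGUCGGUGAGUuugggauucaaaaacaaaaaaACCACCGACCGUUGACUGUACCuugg

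The 5p arm is the same in both, and the longest stretch they share is 28 bases. A read that lies within it cannot be given to a single locus by sequence, and how the authors' counting treated such reads is not given in the sources used here. A count of either gene may therefore rest on its 3p arm and loop, or hold reads of the other. Of the stretches of 22 bases in Mir181a-1, 10.6% also occur in Mir181a-2, and 12.7% of those in Mir181a-2 occur in Mir181a-1. Mir181b-1 and Mir181b-2 share a run of 26 bases, and Mir181c and Mir181d share no stretch of 22 bases with another gene.

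The loci also differ in what else is annotated on them. Mir181b-1 lies wholly inside an exon of the noncoding gene A430106G13Rik on the same strand, while Mir181a-1 has 11 of its 87 bases there and 76 outside. Mir181b-2 lies wholly inside an exon of Gm44144 on the opposite strand. Mir181a-2 lies in an intron of Nr6a1, which runs on the opposite strand and encodes an orphan nuclear receptor, and Mir181c and Mir181d lie in an intron of Nanos3, a germ cell gene on their own strand. All 22-base stretches of Mir181b-1 and of Mir181b-2 occur, on either strand, in the transcript of another gene. The overlapping genes took few counts themselves. A430106G13Rik had 2 counts over the 12 NPC libraries and Gm44144 had 0 in every library.

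**Figure D1:**
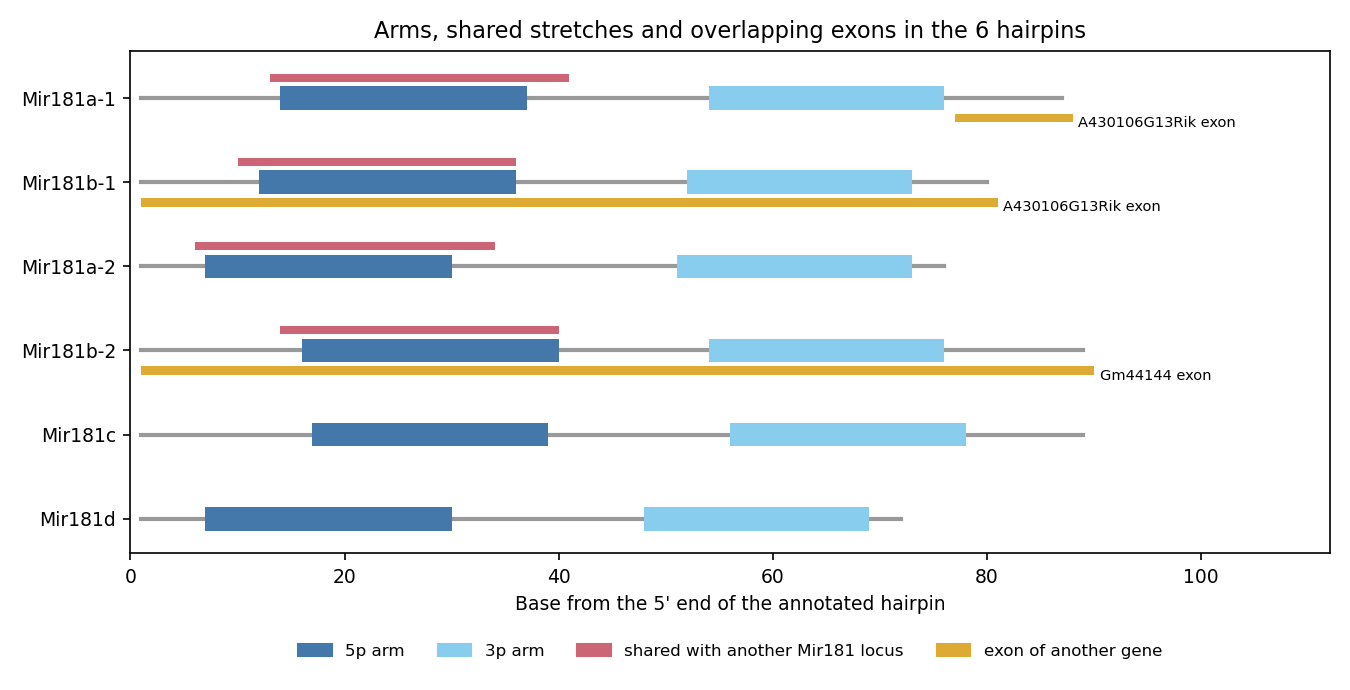
Each line is the annotated hairpin of a family member, in bases from its 5′ end; boxes mark the 5p and 3p arms, the bar above marks bases in stretches of 22 shared with another member, and the bar below marks bases inside an exon of another gene. The 5p arms of the a pair and the b pair lie within shared stretches, and only the hairpins of Mir181b-1 and Mir181b-2 lie wholly inside another gene's exon.

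Depth limits every value. Counts on genes totalled 642384 to 2360434 per mESC library and 342022 to 682113 per NPC library. Genes with a microRNA symbol took 0.163% to 0.497% of counts in mESC and 0.0582% to 0.159% in NPC, from 336 to 672 counts per NPC library. A count of 0 allows up to 1.27 to 4.67 CPM (counts per 1000000 counts of the library) in an mESC library and 4.40 to 8.77 CPM in an NPC library, at 3 counts of the total, for counting error only. Htt, the targeted gene, had 1 count in each KO NPC library and 9 and 2 in WT NPC, and 2 to 3 in KO mESC against 8 in each WT mESC library. Knock-in libraries had 0 to 6 counts in NPC and 0 to 9 in mESC, some of them as low as KO or lower. The cell type labels were checked on marker genes. Nanog had 4 to 16 counts per mESC library and 0 in all NPC libraries, and Pou5f1 had 4 to 13 and 0 to 1, with its 2 NPC counts in Q20. Nes had 0 to 6 counts per mESC library and 1 to 13 per NPC library, which overlap, and Sox2, used by both cell types, had 260 counts in mESC and 57 in NPC. The fibroblast mRNA list had 6 to 52 counts per mESC library, and 1 to 9 per NPC library, with Fn1 at 295 counts in mESC and 20 in NPC, while Col1a1 had 0 counts in mESC and 3 in NPC. The fibroblast microRNA list had 0 to 6 counts per mESC library and 0 to 2 per NPC library. Of it, Mir143 had 14 counts in mESC and 3 in NPC, and Mir145a had 12 and 2. Mir199a-1, Mir199a-2 and Mir214 had 0 in every library. Ptprc, which marks blood cells, had 0 in all 24.

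The miR-181a genes held nearly all of the family's counts in NPC. Mir181a-1 had 1138 counts over the 12 NPC libraries, 207 CPM of the summed totals (95% exact Poisson interval 195 to 219), and 3 over the 12 mESC libraries, 0.154 CPM (0.0317 to 0.449). Mir181a-2 had 267 counts in NPC, 48.6 CPM (42.9 to 54.8), and 3 in mESC, all in replicate 1 of KO. In both genes every NPC library lay above every mESC library. Such a separation in the direction of NPC was seen in 115 of 8016 genes with at least 15 counts (1.43%, or 1.11% with TMM), and nothing is read from it since the genes were chosen on it.

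The ratio of NPC to mESC was 1348 for Mir181a-1 (95% counting interval 460 to 6546) and 316 for Mir181a-2 (107 to 1543) with library totals as the scale. With TMM, edgeR's scaling of libraries, the ratios were 1024 and 240. The denominators hold 3 counts each, which is why the intervals span more than an order of magnitude. In bulk RNA, fewer cells that express a gene and less RNA per cell cannot be told apart. Per 100 bases of hairpin, Mir181a-1 stood at 238 CPM and Mir181a-2 at 63.9 CPM in NPC.

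Mir181a-1 ranked 1 among all microRNA genes in NPC with 19.5% of their 5838 counts, and Mir181a-2 ranked 6 with 4.57%. Together the family had 1425 of these counts, against 115 of 52880 in mESC. Its share of microRNA counts ran from 5.80% to 42.0% over the NPC libraries, with a median of 24.8%, and from 0.0629% to 0.398% over the mESC libraries. The ranks and shares describe the deposited counts, and the family was picked for its level in NPC. Some microRNA genes, such as Mir9-2, Mir125a and Mir125b-1, had 0 counts in every library. How reads that map to several places were counted is not known here.

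The b genes, which sit beside the a genes, took almost no counts. Mir181b-1 had 0 counts in all 24 libraries, which over the summed NPC totals allows up to 0.546 CPM. Mir181b-2 had 7 counts in NPC, spread over 6 libraries with at most 2 in each, and 0 in mESC. That is 1.27 CPM (0.512 to 2.62) in NPC, 8.29 times the floor of 3 counts over the mESC libraries (6.30 times with TMM). These ratios leave out the counting error of the 7 NPC counts. The b genes are the loci that lie wholly inside an exon of another gene. Whether the counting left out reads for that reason was not tested.

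Mir181c and Mir181d had the other direction. Mir181c had 55 counts in mESC, with 1 to 10 in each of the 12 libraries, and 5 in NPC, found in 4 libraries. Its level was 2.82 CPM (2.12 to 3.67) in mESC and 0.910 CPM (0.295 to 2.12) in NPC, a ratio of NPC to mESC of 0.323 (0.101 to 0.801). Mir181d had 54 counts in mESC, 2 to 9 per library, and 8 in NPC, found in 6 libraries. Its levels were 2.76 CPM (2.08 to 3.61) and 1.46 CPM (0.628 to 2.87). The ratio was 0.526 (0.216 to 1.11) with library totals, an interval that holds 1, and 0.400 (0.164 to 0.845) with TMM.

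The mESC and NPC libraries overlapped for both c and d genes, in contrast to the a genes. At these depths a single NPC library could not show a level as low as that of mESC, since the floor of 3 counts in NPC is 4.40 CPM or more. In mESC, Mir181d was higher in CPM in replicate 2 than in replicate 1 in the 5 genotypes other than Q20, for example 14.0 against 2.34 CPM in Q50 and 7.79 against 1.31 CPM in WT. The same replicates 2 had 0.333% to 0.497% of their counts on microRNA genes, against 0.163% to 0.235% in replicates 1. The part that this, or RNA of the fibroblasts in the mESC cultures, has in the levels of Mir181c and Mir181d was not tested.

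**Figure D2:**
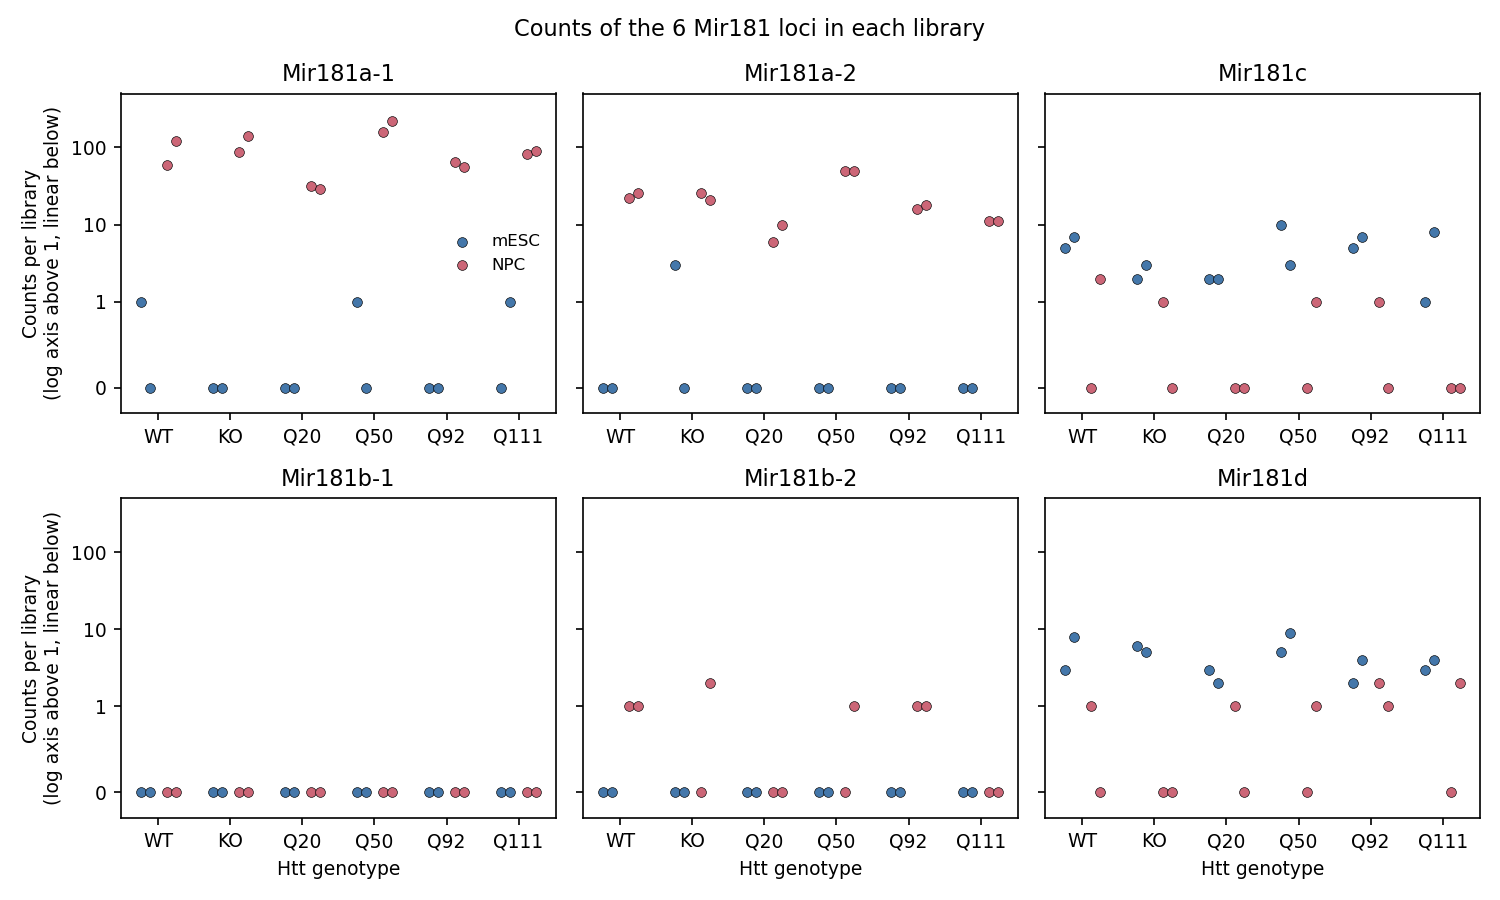
Each point is the deposited count of a family member in a library, by Htt genotype and cell type, on an axis that is logarithmic above 1 and linear below. Mir181a-1 and Mir181a-2 had 29 to 218 and 6 to 50 counts per NPC library, Mir181c and Mir181d had counts in every mESC library, and Mir181b-1 had none.

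Among the NPC lines, both a genes were lowest in Q20 and highest in Q50. The Mir181a-1 counts were 32 and 29 (Q20), 64 and 55 (Q92), 60 and 120 (WT), 82 and 91 (Q111), 87 and 142 (KO), and 158 and 218 (Q50). Scaled by TMM over the NPC libraries, the mean levels in that order were 60.2 ± 10.4, 116 ± 10.8, 178 ± 121, 241 ± 25.7, 272.5 ± 106 and 496 ± 172 CPM (SD, n = 2 each). With this scaling, both Q20 libraries lay below all others and both Q50 libraries above all others. By library totals, replicate 2 of KO, at 403 CPM, lay above replicate 1 of Q50, at 334 CPM. Of the neighbours in the order by TMM, Q92 overlapped WT, WT overlapped Q111, and Q111 overlapped KO. The WT libraries were far apart, at 92.2 and 263 CPM. Their counts on all microRNA genes differed too, at 0.0582% of the total in replicate 1, the lowest in NPC, and 0.123% in replicate 2. As a share of microRNA counts, Mir181a-1 was at 15.1% and 22.2% in these libraries. What part the microRNA content has in the gap was not tested.

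The Mir181a-2 counts were 6 and 10 (Q20), 11 and 11 (Q111), 16 and 18 (Q92), 22 and 26 (WT), 26 and 21 (KO), and 50 and 50 (Q50). The mean levels were 15.5 ± 3.93, 30.8 ± 5.54, 33.2 ± 3.24, 45.4 ± 16.4, 55.2 ± 5.43 and 130 ± 16.5 CPM (SD, n = 2 each). Again the Q20 libraries lay below and the Q50 libraries above the rest, and the 4 groups between overlapped from one to the next. Q111 was the group whose place moved most, at rank 4 from the lowest for Mir181a-1 and rank 2 for Mir181a-2.

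**Figure D3:**
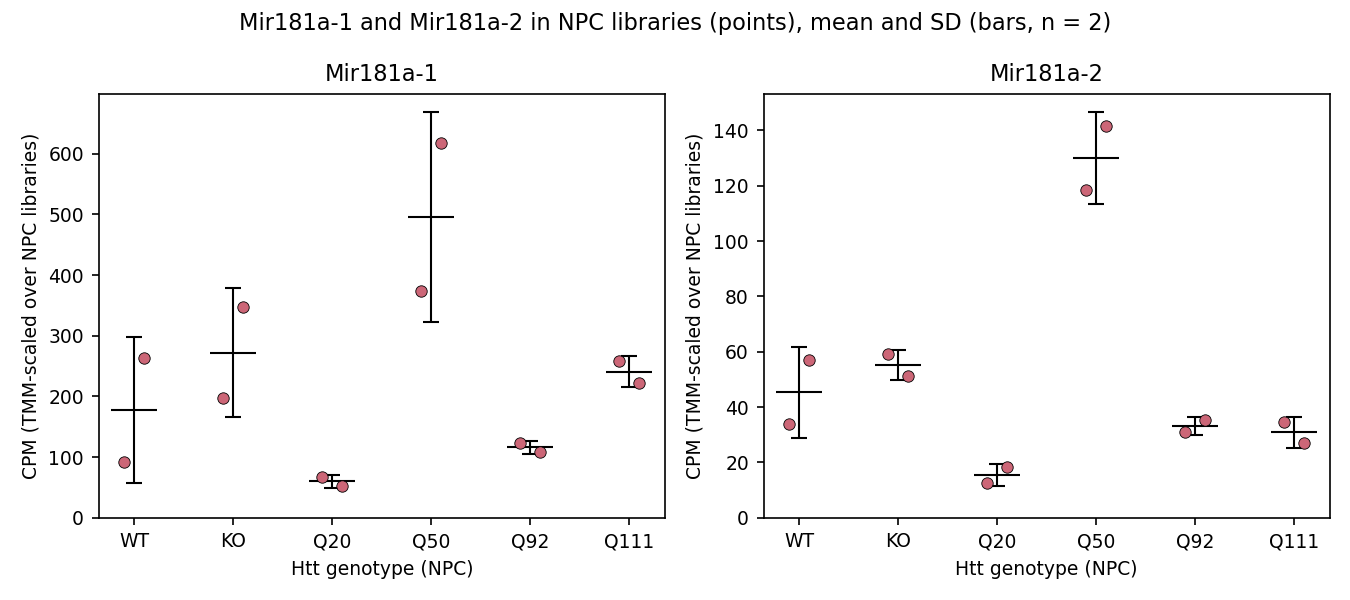
Points are NPC libraries and bars the mean and SD of 2 libraries, in TMM-scaled CPM by Htt genotype, with separate linear axes for Mir181a-1 and Mir181a-2. Q20 had the lowest and Q50 the highest libraries of both genes, and the WT libraries of Mir181a-1 were spread from 92.2 to 263 CPM.

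Whether the lines differed was tested with edgeR's quasi-likelihood test on all genes that passed a filter on low counts. In NPC 441 genes were tested, and of the family only Mir181a-1 and Mir181a-2 passed. The test of any difference among the 6 genotypes called both, with edgeR adjusted p-values of 0.00043 and 0.00015. It called 164 of the 441 genes (37.2%), so a difference among these lines was common. Without the Q20 group, a choice made after the data were seen, both were still called (edgeR adjusted p 0.0489 and 0.0108), beside 21.7% of 405 genes.

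Q50 against Q20 gave the largest change of the 8 comparisons of pairs of lines. The log2 change was 3.02 ± 0.43 for Mir181a-1 (SE, edgeR adjusted p 7.2e-05) and 3.02 ± 0.39 for Mir181a-2 (SE, edgeR adjusted p 3.2e-05), with 17.7% of genes called. Both stayed called with each library left out in turn (highest edgeR adjusted p 0.0031 and 0.0023) and under each other processing tried. Scaling by library totals shifted the median change of all genes by -0.28 to 0.24 over the NPC comparisons, and here by -0.28. Relative to the median of all genes, the change of Mir181a-1 was 3.06 with TMM and 3.03 with library totals.

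Against WT, Q20 was lower and Q50 higher. In Q20, Mir181a-1 fell by 1.53 ± 0.44 on the log2 scale (SE, edgeR adjusted p 0.0296) and Mir181a-2 fell by 1.49 ± 0.42 (SE, edgeR adjusted p 0.0281), where 12.7% of genes were called. In Q50, Mir181a-1 rose by 1.50 ± 0.39 (SE, edgeR adjusted p 0.0310) and Mir181a-2 by 1.53 ± 0.34 (SE, edgeR adjusted p 0.0109), where 6.58% of genes were called. These comparisons share the WT libraries.

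The calls against WT were not stable. Those of Q20 were lost for both genes without replicate 2 of WT, where Mir181a-1 fell by 0.74 (edgeR adjusted p 0.256) and Mir181a-2 by 1.22 (edgeR adjusted p 0.117), and also without either Q20 library. For Mir181a-2 the call of Q20 was also lost without a filter on low counts (edgeR adjusted p 0.339) and with DESeq2 in place of edgeR (adjusted p 0.0586). The call of Mir181a-1 in Q50 was lost without replicate 1 of WT (0.87, edgeR adjusted p 0.166), without replicate 2 of Q50 (0.99, edgeR adjusted p 0.344), with any Q20, Q92 or Q111 library left out, with library totals (1.17, edgeR adjusted p 0.111) and without a filter on low counts (1.23, edgeR adjusted p 0.451). That of Mir181a-2 in Q50 was lost without replicate 1 of WT (1.15, edgeR adjusted p 0.130), without either Q50 library, without replicate 1 of Q20, Q92 or Q111, and without a filter (1.21, edgeR adjusted p 1.00). Without the Q20 group, the calls in Q50 were lost for Mir181a-1 (1.27, edgeR adjusted p 0.122) and Mir181a-2 (1.33, edgeR adjusted p 0.0571). The direction held in all of these fits. Leaving out the other WT library moved the values the other way. Mir181a-1 fell by 2.20 in Q20 without replicate 1 of WT (edgeR adjusted p 9.6e-05) and rose by 2.33 in Q50 without replicate 2 of WT (edgeR adjusted p 0.00059). Mir181a-2 fell by 1.92 in Q20 (edgeR adjusted p 0.0087) and rose by 1.84 in Q50 (edgeR adjusted p 0.0040) under the same omissions.

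KO, Q92 and Q111 did not pass the test against WT. For KO the changes were 0.65 ± 0.39 for Mir181a-1 (SE, edgeR adjusted p 0.543) and 0.32 ± 0.36 for Mir181a-2 (SE, edgeR adjusted p 0.818), with 1.36% of genes called. For Q92 they were -0.57 ± 0.41 and -0.40 ± 0.37 (SE, edgeR adjusted p 0.319 and 0.455), with 18.8% called. For Q111 they were 0.46 ± 0.40 and -0.54 ± 0.40 (SE, edgeR adjusted p 0.516 and 0.439), with 10.9% called. Both WT libraries weigh on these values. Without replicate 2 of WT, Mir181a-1 was higher in KO by 1.57 (edgeR adjusted p 0.0118) and in Q111 by 1.36 (edgeR adjusted p 0.0134), and was at 0.0069 in Q92. Without replicate 1 of WT, it fell by 1.47 in Q92 (edgeR adjusted p 0.0031) and was at 0.12 in KO and -0.10 in Q111. Mir181a-2 in Q92 was at -1.07 without replicate 1 of WT and was not called (edgeR adjusted p 0.103).

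Against Q20, Q111 was higher for Mir181a-1, by 1.99 ± 0.44 (SE, edgeR adjusted p 0.00506, 14.3% of genes called). This call was lost without replicate 2 of Q20 (edgeR adjusted p 0.0512) and without replicate 1 of Q111 (edgeR adjusted p 0.0566), at values of 1.93 and 1.99. Mir181a-2 was at 0.95 ± 0.46 (SE) and was not called (edgeR adjusted p 0.191). Q92 against Q20 was not called for either gene, at 0.96 ± 0.44 and 1.09 ± 0.43 (SE, edgeR adjusted p 0.153 and 0.0940), with 15.9% of genes called. These comparisons share the Q20 libraries.

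**Figure D4:**
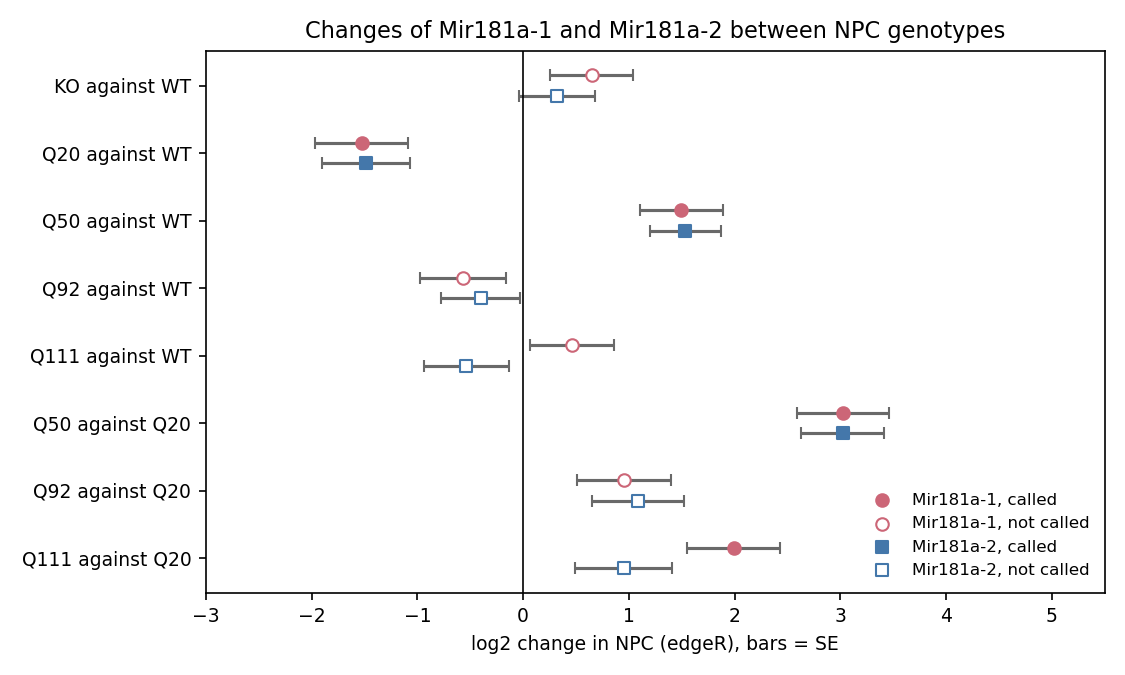
Points are log2 changes between NPC genotypes from the edgeR fit and bars their SE, filled where the adjusted p was under 0.05, for Mir181a-1 (circles) and Mir181a-2 (squares). Q50 against Q20 lies at 3.02 for both genes, and Q111 is the genotype where the 2 genes lie on opposite sides of 0 against WT, at 0.46 and -0.54.

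No trend with repeat number was called. Over the 8 knock-in NPC libraries, the slope per 10 CAG repeats was 0.03 ± 0.12 for Mir181a-1 (SE, edgeR adjusted p 0.954) and -0.06 ± 0.13 for Mir181a-2 (SE, edgeR adjusted p 0.872), with 6.45% of 403 genes called. Q50 was the highest of the knock-in lines, above Q92 and Q111. Without the Q20 group the slopes were -0.20 ± 0.08 (SE, edgeR adjusted p 0.202) and -0.36 ± 0.06 (SE, edgeR adjusted p 0.0112), so that Mir181a-2 was then called as falling, beside 4.25% of 353 genes. That slope rests on Q50, Q92 and Q111, whose mean levels of Mir181a-2 were 130, 33.2 and 30.8 CPM. With each repeat length in a line of its own, a trend and a difference of Q50 from the other lines cannot be told apart.

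In mESC the filter left Mir181c and Mir181d. The filter works on CPM, and both genes passed it on replicate 2 libraries, which have fewer counts. Mir181c was highest in replicate 2 of Q92, at 7.23 CPM, and Mir181d in replicate 2 of Q50, at 14.0 CPM. Neither was called for a difference among the genotypes (edgeR p 0.414 and 0.537, adjusted p 1.00 for both) by the test, which called 1 of 1766 genes (0.0566%). The Mir181c counts were 2 and 3 (KO), 5 and 7 (WT), 2 and 2 (Q20), 10 and 3 (Q50), 5 and 7 (Q92), and 1 and 8 (Q111). Those of Mir181d were 6 and 5 (KO), 3 and 8 (WT), 3 and 2 (Q20), 5 and 9 (Q50), 2 and 4 (Q92), and 3 and 4 (Q111). No genotype stood clear of the others for either gene at this depth. The test had no term for replicate number, although same-numbered mESC libraries deviated together in 10 of 15 pairs of groups (r over 0.1). With a replicate block it called 29 genes, and neither Mir181c nor Mir181d was among them. In simulated counts with these depths, 30.5% of genes changed by a log2 value of 2 were called in the mESC test, against 93.4% in the NPC test. The change was put into Q50 in mESC and into Q20 in NPC, and replicate 2 of Q50 had the lowest mESC total, 642384 counts. The spread put into the simulated counts also differed, a biological coefficient of variation of 37.9% for mESC and 17.3% for NPC. Every simulated gene of a cell type had that spread and otherwise equal levels in all lines, so these rates need not hold for single genes.

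The Q20 NPC libraries also held RNA found otherwise in mESC. The list of 14 ES cell microRNAs (13 in the table), such as the miR-290 and miR-302 groups, had 192 and 214 counts in the Q20 NPC libraries, 398 ± 10.8 CPM (SD, n = 2), and at most 1 count in any other NPC library. The ES cell mRNA list had 2 and 3 counts there and 0 to 2 in the other NPC libraries, and Nanog was at 0. The 10 neural progenitor mRNAs summed to 190 ± 11.5 CPM in Q20 (SD, n = 2), below the group means of 246 to 416 CPM in the other lines. Not every gene of the list was lower. Tnc had 2 and 3 counts in Q20 and 6 to 46 in the other NPC libraries. Hes5 had 8 in each Q20 library and 0 to 8 in the others, and Sox2 had 5 and 7 against 2 to 7. The 26 neural microRNAs in the table summed to 96.3 ± 10.8 CPM in Q20 libraries, near the 97.5 ± 23.5 CPM of Q92 (SD, n = 2 each), with the other lines at 125 to 176 CPM. Lymphoid mRNAs had 0 counts in all NPC libraries. What part the ES cell microRNAs or the lower sum of progenitor mRNAs have in the low Mir181a values of Q20 was not tested.

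The family's share of microRNA counts gives the same lines at the ends without a scaling of whole libraries. The shares were 6.28% ± 0.667 in Q20, 20.8% ± 1.53 in Q92, 24.4% ± 4.51 in WT, 24.8% ± 1.73 in Q111, 31.7% ± 3.19 in KO and 40.2% ± 2.52 in Q50 (SD, n = 2 each). With the ES cell microRNAs taken out of the denominator, Q20 was at 9.31% ± 1.12 (SD, n = 2) and still below every other library. The Q50 mean was 6.41 times the Q20 mean, or 4.32 times with those microRNAs taken out. A share moves with every other microRNA in it, so it is no independent measure of the family.

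**Figure D5:**
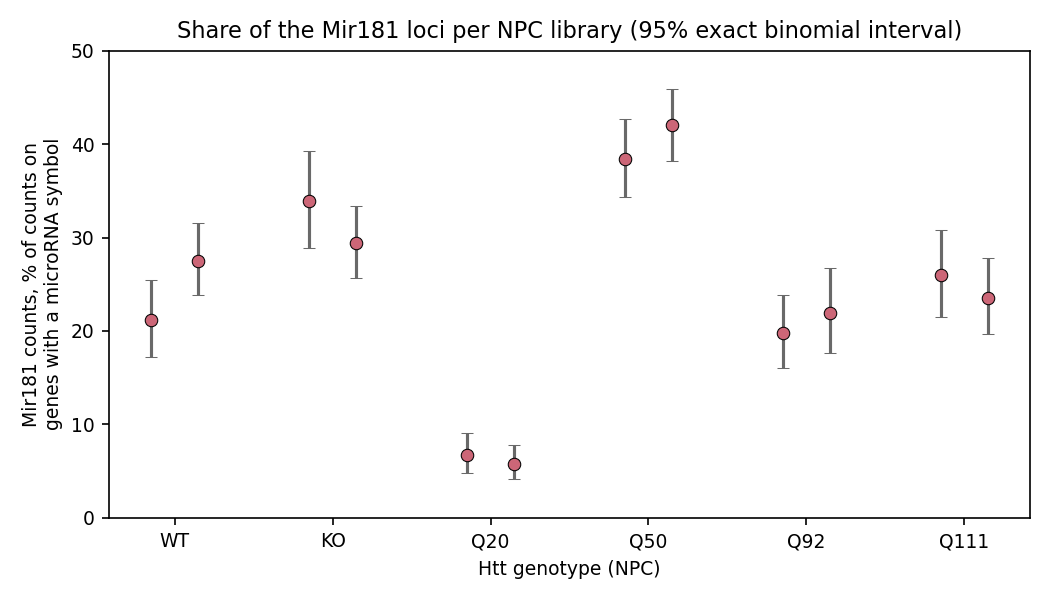
Points are the counts of all family members as a percentage of counts on genes with a microRNA symbol in each NPC library, with 95% exact binomial intervals, by Htt genotype. The Q20 libraries lie lowest, at a mean of 6.28%, and the Q50 libraries highest, at 40.2%.

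The balance of the a genes varied between libraries. Mir181a-1 had 4.26 times the counts of Mir181a-2 over NPC, with a median ratio of 4.18 over the 12 libraries. The lowest ratio was 2.73 in replicate 1 of WT and the highest were 7.45 and 8.27 in the Q111 libraries. In Q111, Mir181a-1 made up 88.2% (95% exact binomial interval 79.8 to 93.9) and 89.2% (81.5 to 94.5) of the counts of both genes. In replicate 1 of WT it made up 73.2% (62.2 to 82.4). Replicate 2 of KO was next to Q111, at 6.76, while replicate 1 of KO was at 3.35, so the libraries of KO were also far apart. A difference in this balance between lines was not tested.

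Across the 12 NPC libraries the log2 levels of the a genes had a Pearson r of 0.859 and a Spearman rho of 0.804, and an r of 0.772 over the 10 libraries without Q20, whose libraries were farthest from the median of Mir181a-1. They share a stretch of sequence and the scaling of each library, so the value is a description. Among 252 genes with a mean of at least 10 counts, the pattern most like Mir181a-1 was that of Gm28438, annotated as an unprocessed pseudogene (r = 0.948), followed by Mir30a (0.916), the mitochondrial genes mt-Nd2 (0.897) and mt-Nd5 (0.882), and Mirlet7c-1 (0.867). For Mir181a-2 they were Mir30a (0.878), Gm28438 (0.861), Mir181a-1, the snoRNA Snord70 (0.850) and mt-Nd2 (0.801). Mir30a had 4 to 40 and Mirlet7c-1 2 to 26 counts per NPC library.

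The genes around the family were described from lists. Of 26 neural microRNAs in the table, 4 passed the NPC filter, Mir7-1, Mir9-1, Mir9-3 and Mir99b, and 1 of the 4 was called among the genotypes, beside 37.2% of all genes tested, so the count does not set the list apart. This was Mir9-1, a gene of the miR-9 family of neural progenitors, with 1 and 3 counts in Q20 and 6 to 16 in every other NPC library (edgeR adjusted p 0.00623). It fell by 2.12 ± 0.66 in Q20 against WT (SE, edgeR adjusted p 0.0418, 12.7% of genes called) and was higher by 3.12 ± 0.61 in Q50 against Q20 (SE, edgeR adjusted p 0.00175, 17.7% called). The call of Mir9-1 against WT was lost without either WT library, either Q20 library or replicate 1 of Q92 (edgeR adjusted p 0.0537 to 0.218), without a filter (edgeR adjusted p 0.567) and with DESeq2 (adjusted p 0.110). Among the genotypes Mir9-1 was not called without a filter (edgeR adjusted p 0.0824) or without the Q20 group (edgeR adjusted p 0.177). Mir9-3, which gives the same miR-9 strand from another chromosome, had 15 and 17 counts in Q20 and was not called (edgeR adjusted p 0.458 among the genotypes). Mir99b, with 14 to 45 counts per NPC library, was not called either (edgeR adjusted p 0.323).

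Of 18 genes of microRNA processing, such as Drosha and Dgcr8, which cut the hairpin out, and Dicer1 and Ago2, which make and hold the mature strand, 1 passed the NPC filter. This was the helicase gene Ddx5, with 4 to 14 counts per library, and it was not called among the genotypes (edgeR adjusted p 0.181). Dicer1 had 40 and Ago2 73 counts over the 12 NPC libraries. Of 20 reported miR-181 targets, 1 passed, Dusp6, a phosphatase gene of the ERK pathway with 1 to 16 counts per NPC library, and it was not called (edgeR adjusted p 0.386). Among the others, Bcl2 had 8 and Mcl1 31 counts over NPC. Small RNA libraries hold fragments of messenger RNAs, so these counts do not measure whether targets responded. All 6 genes that overlap the family's loci were in the table and none passed the filter, with Nr6a1 at 29 counts in mESC and 2 in NPC and Nanos3 at 3 and 0. Gm4258 had the most NPC counts of the 6, with 10 in all.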

How the data were processed

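The deposited values are raw whole-number counts, 1 per gene and library, for 24 small RNA libraries. Reads were 50-base single reads, per the labels' protocols. CASAVA 1.8, STAR, HTSeq and the build GRCm38.p6 are named per the submitters' processing notes, which give no roles. Trimming, strand use, and the treatment of reads that map to several places or overlap several genes are not given in the sources used here; reads on an antisense gene and on its partner may then not be told apart. The Q92 samples were read from the columns that carry the name Q89. No column was left unused. Gene identifiers were matched to GENCODE mouse release M21, 55154 of 55335, and the rest held 57 of 25027120 counts. Per the series' design text, the 2 libraries of a group are biological samples; the labels do not say how they were kept apart, so p-values measure the spread between these libraries, which may be technical.

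Tests used edgeR 4.0.16 in R 4.3.3 (glmQLFit, glmQLFTest, TMM, filterByExpr at min.count 10 and min.total.count 15) on whole tables, with Benjamini-Hochberg adjustment over all genes tested and calls at an adjusted p under 0.05. NPC and mESC were fitted apart, each with 12 libraries that share 1 estimate of the spread. The slope used 8 libraries. The SE of an edgeR change or slope was worked back from its test, as the absolute value divided by the square root of the F statistic. CPM is counts per 1000000 of the TMM-scaled total within NPC, or of the library total where said. Ratios of summed counts have exact counting intervals from SciPy 1.17.1; intervals and floors (3 counts) cover counting error only. Stretches of 22 bases were searched in GENCODE transcripts, not in the genome. Members and lists were chosen with earlier results of these data known. All 6 members are named, as are the 5 genes of highest Pearson r per member with a mean of at least 10 counts, and tested list members.

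Tests were checked on simulated counts with a log2 change of 2 put into some genes. The change was put into Q20 in NPC and into Q50 in mESC, and for the slope as a straight line over the repeats. Each simulation used the same spread for every gene, estimated within groups. The slope fit of the real libraries had a biological coefficient of variation of 36.7%, against 17.3% for the NPC group fit. The simulated rate for the slope therefore need not hold for the slopes of the family. Of the changed genes tested, 93.4% of 181 were called for any genotype in NPC, 88.6% of 175 for Q20 against WT, 98.3% of 181 for the slope and 30.5% of 174 for any genotype in mESC; false calls were 1.74%, 1.90%, 6.81% and 1.85% of calls. Other settings were a test with DESeq2 1.42.0, its size factors or library totals as the scaling, no filter on low counts, a replicate block, 89 repeats for Q92, and fits without each library or without Q20.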

Additional observations from a re-analysis of the deposited data

How the results depend on the processing

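For Mir181a-1 and Mir181a-2, the difference among NPC genotypes and Q50 against Q20 were called under every setting tried. The calls against WT that were lost stand beside the results. Changes that were not called turned sign in a few settings. With each library left out in turn, the Mir181a-1 slope ran from -0.059 to 0.124, negative without either Q20 library, and was -0.20 without the Q20 group. The Mir181a-2 slope ran from -0.188 to 0.011, positive without replicate 2 of Q50. Mir181a-2 in KO against WT was -0.026 with no filter. For Mir181a-1 with each library left out in turn, Q92 against WT ran from -1.47 to 0.0069 and Q111 against WT from -0.10 to 1.36, with the WT libraries at both ends. Of the family's share of microRNA counts, the ratio of Q50 to Q20 was 4.32 without ES cell microRNAs and 5.96 to 6.93 with a library left out. The cause of these changes was not tested.

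The number of genes called moved more. With no filter on low counts it was 0 for both KO and Q50 against WT, 30 for Q20, 27 for both Q92 and Q111 against WT, 34 in both Q50 and Q92 against Q20, 35 in Q111 against Q20, 50 for the slope and 6 in mESC. No filter leaves more genes to adjust over. The numbers fell in the comparisons of pairs of lines, but rose for the slope and in mESC, from 26 and 1 with the filter. Why they moved was not tested. With DESeq2's test, KO against WT gave 24, Q20 against WT 33, and it was 50 and 40 in Q50 and Q111 against Q20, 11 for the slope and 7 in mESC. DESeq2 size factors gave 10 in KO against WT and 19 in Q50 against WT, and library totals gave 1 in KO against WT and 3 in mESC. Without the Q20 group it was 88 for any genotype in NPC, 17 in Q50 against WT and 15 for the slope. With each library left out in turn, the number ran from 100 to 226 for any genotype in NPC, from 0 to 22 in KO, 19 to 99 in Q20, 6 to 37 in Q50, 13 to 103 in Q92 and 14 to 98 in Q111 against WT, from 28 to 111 in Q50, 21 to 115 in Q92 and 24 to 97 in Q111 against Q20, from 6 to 34 for the slope and from 1 to 5 in mESC. A group left with 1 library is assumed to vary like the others.

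The replicate numbers were not read as pairing. Same-numbered libraries deviated together (r over 0.1) in 4 of 15 pairs of NPC groups over 441 genes (r from -0.09 to 0.44). In mESC this held for 10 of 15 pairs of groups over 1766 genes (r from 0.000145 to 0.516). A replicate block left the calls of Mir181a-1 and Mir181a-2 as they were (edgeR adjusted p 2.3e-05 and 2.4e-05 among genotypes) and gave 9 genes for the slope and 29 in mESC. The fits of any genotype and of the groups against WT without Q20, and the share without ES cell microRNAs, were chosen after seeing the data.

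Depth limits the low members most. Mir181b-2, Mir181c and Mir181d had at most 2 counts in an NPC library, too few for a test between NPC genotypes, and in mESC Mir181c and Mir181d had at most 10.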
